A study of Mus musculus with 7 samples.

Results

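The 10 genes described here are the 4 reprogramming factors Pou5f1 (which encodes Oct4), Sox2, Klf4 and Myc, together abbreviated OSKM, and 6 of their relatives, Mycn, Mycl, Klf2, Klf5, Sox15 and Pou3f1. They were chosen by name, as the array rows whose platform annotation gives one of them as the sole gene symbol. Each of the 10 had 1 row, 0 further rows shared a symbol with them, and they are 10 of the 13562 genes named on the arrays. RNA was measured on 7 Affymetrix arrays, 1 for each of 7 mouse cultures. V19-OSKM mouse embryonic fibroblasts (MEFs), in which doxycycline (DOX) induces OSKM, were labelled UTX-/Y (KO) with DOX, KO without DOX, UTX+/Y (WT) with DOX and WT without DOX. Fibroblasts generated from Nanog-/- embryonic stem cells had carried an OSKM lentivirus for 8 days. V6.5 embryonic stem cells (ESCs) were labelled Utx KO and Utx WT. Utx, the product of Kdm6a, is a histone H3 demethylase, and the series asks what it does during reprogramming.

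The labels state neither a duration nor a dose of DOX, nor how the Utx allele was altered, and they give the same ESC medium for all cultures. As each condition has 1 array, differences below come without replicate error and without p-values, and the small number of arrays sets their precision. Values are the deposited log2 values, so a difference of 1 is 2-fold. A value is called above the floor when it exceeds 7.34, the 40th percentile of all values on the arrays. A gene is called higher or lower at 2-fold or more when the higher of its 2 values is above the floor. Where the lower of the 2 lies under the floor, the fold is given as "at least", with that side set to the floor.

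Oct4 is a POU-domain protein and Sox2 an HMG-box protein, and the pair binds neighbouring DNA motifs at many genes of pluripotent cells. Klf4 is a zinc-finger protein that binds GC-rich and CACC-type motifs, and Myc binds E-box motifs as a dimer with Max and drives growth and proliferation. Forced expression of OSKM turns fibroblasts into induced pluripotent stem cells, a course in which mesenchymal genes are lost and epithelial genes gained before the pluripotency genes are restored. Several relatives can stand in for a factor: Klf2 and Klf5 for Klf4, Mycn and Mycl for Myc, and Sox15 is a Sox protein of mouse ESCs, whereas Pou3f1 (Oct6) belongs to the epiblast and to neural and glial lineages.

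Start-site sequences are shown for 4 of the genes that were higher in ESCs than in MEFs, because they hold the kinds of motif that the factors read. RefSeq start-site windows (GRCm38.p6, 250 bases before to 50 after the start) were matched for 7 of the 10 genes, in 8 windows, since Pou5f1 has a pair of annotated starts, of which the upstream one is printed. The motifs searched, on both strands, were the octamer ATGCAAAT read by POU proteins, the Sox motif CATTGT, the Klf motif GGGNGTG and the E-box CACGTG. Capitals mark every match, on either strand, and in Sox15 a pair of overlapping Klf matches runs together.
Pou5f1, chr17:35505782-35506081, plus strand: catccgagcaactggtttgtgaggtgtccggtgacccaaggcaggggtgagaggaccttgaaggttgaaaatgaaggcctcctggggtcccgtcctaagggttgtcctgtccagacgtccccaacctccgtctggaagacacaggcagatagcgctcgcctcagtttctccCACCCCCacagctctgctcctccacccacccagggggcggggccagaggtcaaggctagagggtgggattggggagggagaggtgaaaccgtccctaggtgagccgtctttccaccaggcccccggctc
Mycn, chr12:12941787-12942086, minus strand: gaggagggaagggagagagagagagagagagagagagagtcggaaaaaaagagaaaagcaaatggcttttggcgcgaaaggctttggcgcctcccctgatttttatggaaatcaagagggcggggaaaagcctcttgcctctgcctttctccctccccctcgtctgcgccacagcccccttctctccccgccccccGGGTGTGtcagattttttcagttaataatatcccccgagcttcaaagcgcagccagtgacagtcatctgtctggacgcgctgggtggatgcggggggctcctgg
Sox15, chr11:69654787-69655086, plus strand: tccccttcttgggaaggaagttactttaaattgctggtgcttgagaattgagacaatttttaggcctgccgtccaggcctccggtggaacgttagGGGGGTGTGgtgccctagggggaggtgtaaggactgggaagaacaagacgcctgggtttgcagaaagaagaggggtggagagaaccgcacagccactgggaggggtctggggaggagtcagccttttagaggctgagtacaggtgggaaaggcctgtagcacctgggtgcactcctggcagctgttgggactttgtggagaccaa
Klf4, chr4:55532426-55532725, minus strand: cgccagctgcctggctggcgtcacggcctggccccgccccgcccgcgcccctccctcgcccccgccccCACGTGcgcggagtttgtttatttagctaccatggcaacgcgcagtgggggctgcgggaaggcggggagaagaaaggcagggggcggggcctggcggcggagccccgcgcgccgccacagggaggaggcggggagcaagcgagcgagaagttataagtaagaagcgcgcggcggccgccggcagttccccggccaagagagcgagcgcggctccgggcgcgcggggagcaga
The Klf motif stood in 4 of the 8 windows (those of Pou5f1 at 79 bases, Mycl at 50 bases, Mycn at 54 bases and Sox15 at 155 and 153 bases before the start), against 29.2% of all 32851 windows. A Sox motif stood in 2 of the 8 windows, against 12.6% of all windows, and an E-box in 1 of them, that of Klf4 at 182 bases before the start, against 7.15%. The octamer was in 0 of the 8 windows and in 1.74% of all. These matches are descriptions of letters in 300 bases.

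Kdm6a, the gene targeted in the KO cells, was lower in the KO library of each pair, at 7.57 in KO against 8.93 in WT MEFs with DOX, at 6.32 against 8.22 in MEFs without DOX, and at 7.97 against 9.12 in ESCs. The pair of MEF libraries labelled KO goes against its DOX labels at Pou5f1, as given below, so both are called here KO-labelled, and a direction given for them is one of labels. Marker genes chosen for the tissues also differed between the cultures. All 9 measured ESC markers were above the floor in both ESCs, against 0 to 2 of them in the other 5. Of 10 fibroblast markers, 4 were above it in WT MEFs with DOX, against all 10 in WT MEFs without DOX, and all 10 were also above it in both KO-labelled libraries and in the Nanog KO cells. Epithelial markers numbered 10 of 10 above the floor in WT MEFs with DOX and 1 without DOX, and macrophage markers 1 of 9 with DOX and 9 of 9 without. In such bulk samples, fewer cells of a type and less RNA per cell cannot be told apart. The Nanog KO array had a median of 8.55, against 7.68 to 7.84 on the other 6, so its differences are also given with the array medians aligned.

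In WT MEFs, DOX went with a high Pou5f1 value and a moderately higher Myc value, but with no 2-fold difference in Sox2 or Klf4. Pou5f1 read 12.59 in WT MEFs with DOX, against 8.19 without DOX, a difference of 4.40 or 21.1-fold, at rank 3 from the top among the 7437 genes above the floor on both arrays. The value with DOX also exceeded that of WT ESCs, 12.14. Myc read 12.21 with DOX, against 10.99 without, a difference of 1.22 or 2.33-fold. The Myc value was well above the floor without DOX too, and the DOX library was the highest of the 7 for this gene. Klf4 read 8.89 with DOX, against 9.00 without, a difference of -0.11. For Sox2 the values were 5.31 with DOX, against 5.18 without, and both values lie under the floor. Which part of each transcript the probe sets cover, and whether that part is carried by the OSKM transgene, was not given in the sources used here. RNA of the transgene and of the cell's own gene therefore cannot be told apart, and a low value does not measure the transgene.

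None of the 6 relatives was called higher with DOX in WT MEFs, where the background is 11.9% of genes. Only Klf2, Klf5 and Pou3f1 could be called, and with so few genes none called higher is near that share. Klf2, a naive pluripotency factor that is also expressed in endothelium and leukocytes, read 6.52 with DOX, against 8.42 without, at least 2.11-fold lower. Klf5, an ESC factor that is also found in proliferating epithelium, read 7.75 with DOX, against 8.27 without, a difference of -0.52. Pou3f1 read 7.36 with DOX and 7.39 without, both close to the floor. Mycn, Mycl and Sox15 lay under the floor on both arrays, with differences of -0.31, 0.26 and -0.28. Of the 6 genes above the floor, 2 were thus higher (Pou5f1 and Myc), where the background is 11.9% of 9524 genes, and 1 was lower (Klf2, above the floor without DOX only), where the background is 13.7%. The median difference of the 10 was -0.07, and that of all genes above the floor was 0.00. Klf2 was lower in the library in which the macrophage markers were lower too, at a median level of 5.36 with DOX and 9.91 without, and their part in the Klf2 value was not tested.

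**Figure D1:**
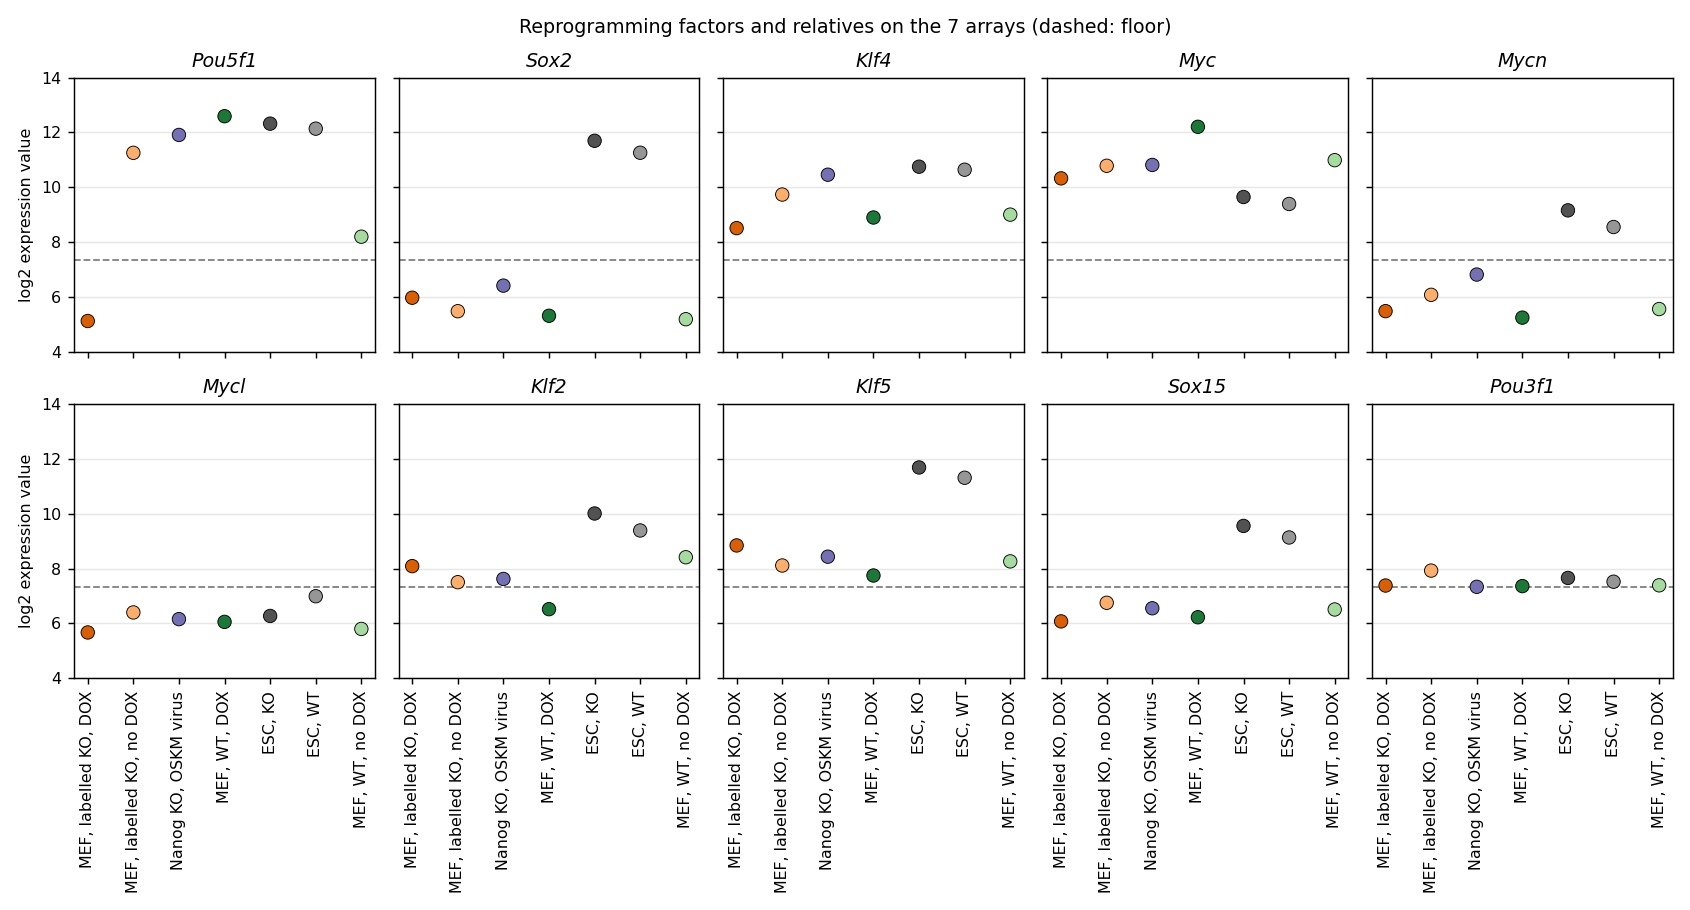
Deposited log2 values (vertical axis) of the 10 genes, 1 point for each of the 7 arrays, with the floor of 7.34 as a dashed line. Sox2, Mycn and Sox15 stood above the floor in both ESCs and on none of the other 5 arrays, whereas Pou5f1 stood above it on 6 arrays, all but that of the KO-labelled MEFs with DOX.

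In the KO-labelled MEFs, the DOX labels went with the opposite Pou5f1 values. Pou5f1 read 5.12 in the KO-labelled DOX library, against 11.26 in the KO-labelled no-DOX library, at least 15.1-fold lower. The value of 5.12 is the lowest of the 7 arrays and lies below that of uninduced WT MEFs, 8.19. Klf4 was lower as well, at 8.51 with DOX and 9.73 without, or 2.34-fold. Myc read 10.32 with DOX and 10.78 without, a difference of -0.46. Sox2 read 5.97 and 5.47, again under the floor in both. The Oct4, Klf4 and Myc genes were thus all lower in the library labelled with DOX, although the Myc difference did not reach 2-fold.

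Among the relatives in the KO-labelled MEFs, Klf5 read 8.85 with DOX and 8.11 without, and Klf2 read 8.09 and 7.51, differences of 0.73 and 0.59. Pou3f1 read 7.38 with DOX and 7.93 without. Mycn, Mycl and Sox15 lay under the floor in both libraries, with differences of -0.60, -0.73 and -0.68. In all, 2 of the 6 genes above the floor (Pou5f1 and Klf4) were lower, where the background is 2.93%, and 0 were higher, where it is 6.81%. Of the 6 genes above the floor on any of the 4 MEF arrays, 4 (Pou5f1, Myc, Klf2 and Klf5) had DOX differences of opposite sign in the KO-labelled MEFs and in the WT MEFs, or 66.7%. The share is near that of all 10039 such genes, 64.9%. Pou5f1 was the 1 gene of the 10 that was called in both genotypes, with opposite signs, as were 479 of the 504 genes called in both (95%).

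**Figure D2:**
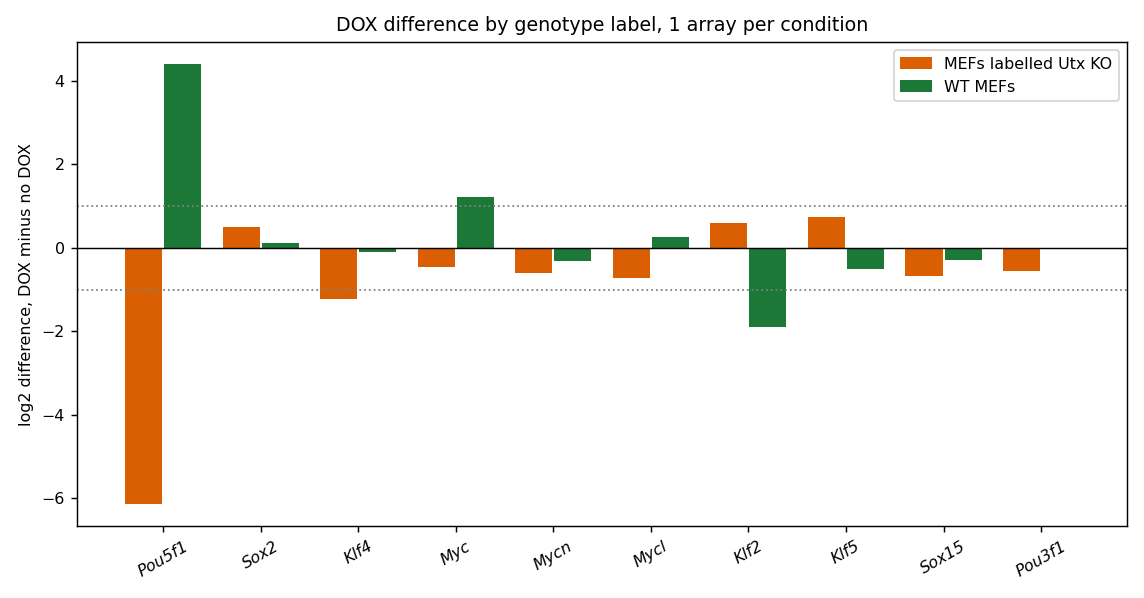
Log2 difference, DOX minus no DOX (vertical axis), for each of the 10 genes, in the MEFs labelled Utx KO (orange) and in the WT MEFs (green); dotted lines mark 2-fold, and each bar is the difference of 2 single arrays. Pou5f1 was at -6.14 in the KO-labelled MEFs and at 4.40 in the WT MEFs, and Klf2 at 0.59 and -1.90. With values under the floor set to it, the Pou5f1 bar for the KO-labelled MEFs would stand at -3.92 and the Klf2 bar for the WT MEFs at -1.08.

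Set against WT MEFs of the same DOX label, the KO-labelled no-DOX library stood out by Pou5f1. Its value of 11.26, against 8.19 in WT, was 8.35-fold higher and ranked 1 from the top among the 7721 genes above the floor on both arrays. Klf4 was next among the factors, at 9.73 in the KO-labelled library and 9.00 in WT. Klf2 read 7.51 in the KO-labelled library, against 8.42 in WT, a difference of -0.91, and the macrophage markers were again lower in the library with less Klf2, at a median level of 5.91 against 9.91 in WT; their part was not tested. Of 6 genes above the floor, 1 (Pou5f1) was higher, where the background is 5.04%, and 0 were lower, where it is 9.53%. The median difference of all genes above the floor was -0.11, and the array medians were 7.68 in the KO-labelled library and 7.81 in WT. With the array medians aligned, Pou5f1 differed by 3.20, Klf4 by 0.87 and Klf2 by -0.77.

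With DOX, 4 of the 6 genes above the floor were called higher or lower in the KO-labelled library than in WT. The call of Klf2 rests on a WT value under the floor. Pou5f1 read 5.12 in the KO-labelled library, against 12.59 in WT, at least 38.1-fold lower. Myc read 10.32, against 12.21 in WT, 3.68-fold lower. The relatives Klf2 and Klf5 lay the other way: Klf2 read 8.09, against 6.52 in WT, at least 1.68-fold higher, and Klf5 read 8.85, against 7.75 in WT, 2.14-fold higher. The backgrounds are 12.1% of genes lower and 14.3% higher. Pou5f1 was above the floor in WT only, and Klf2 in the KO-labelled library only. Klf4 differed by -0.39 and Pou3f1 by 0.02.

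Between the Utx KO and WT ESCs, all 9 genes above the floor were within 2-fold. Pou5f1 read 12.32 in KO and 12.14 in WT ESCs, Sox2 11.70 and 11.26, and Klf4 10.75 and 10.64. The relatives were close as well: Klf2 read 10.01 in KO and 9.39 in WT, Klf5 11.69 and 11.32, Sox15 9.56 and 9.14, and Mycn 9.16 and 8.55. Each of these 9 read slightly higher in KO ESCs, by 0.11 (Klf4) to 0.62 (Klf2), while Mycl, under the floor in both, read 6.27 in KO and 6.99 in WT. The median difference of the 10 was 0.31, against 0.06 over all genes above the floor. None was called, where the background is 0.651% higher and 3.18% lower. Fibroblast markers differed between the same arrays, with 1 of 10 above the floor in KO and 6 in WT ESCs, at a median level of 6.18 in KO and 8.19 in WT. Among them Col1a1, a collagen gene, read 7.59 in KO and 10.30 in WT. Their part in the small differences of the 9 genes was not tested.

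The relatives divided into those that were ESC genes and those that were not. Compared with WT MEFs without DOX, 6 of the 9 genes above the floor were higher in WT ESCs, where the background is 14.5%, and 1, Myc, was lower, where it is 19.8%. Of the 6, Sox2, Mycn and Sox15 were above the floor in ESCs only. Sox2 read 11.26 in ESCs, against 5.18 in MEFs, at least 15.1-fold higher. Pou5f1 read 12.14 in ESCs and 8.19 in MEFs, 15.4-fold higher. In the Klf family Klf5 read 11.32 in ESCs and 8.27 in MEFs, 8.30-fold higher, Klf4 read 10.64 and 9.00, 3.12-fold higher, and Klf2 read 9.39 and 8.42, a difference of 0.98 that lies just under 2-fold.

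Within the Myc family the members ran in opposite directions between ESCs and MEFs. Mycn, the Myc relative of stem and progenitor cells, read 8.55 in WT ESCs against 5.55 in WT MEFs without DOX, at least 2.31-fold higher. Myc read 9.39 in ESCs and 10.99 in MEFs, 3.03-fold lower in ESCs. Mycl lay under the floor on all 7 arrays, between 5.67 and 6.99. Sox15 resembled Sox2 in its pattern, at 9.14 in ESCs against 6.51 in MEFs, at least 3.48-fold higher. Pou3f1 differed by 0.13 and kept within 7.34 to 7.93 over the 7 arrays. With medians aligned its range over the 7 arrays was 1.47 in place of 0.59, with the Nanog KO cells lowest at 6.68.

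Of the 6 genes called higher in ESCs, Pou5f1 alone lay within 2-fold of the ESC value in WT MEFs with DOX, at a difference of 0.45. Sox2 was at least 15.1-fold lower in the MEFs with DOX, Klf5 11.9-fold, Sox15 at least 3.48-fold, Klf4 3.35-fold and Mycn at least 2.31-fold. Klf2, which is not among those 6, was at least 4.15-fold lower in the MEFs with DOX. Myc was 7.05-fold higher in MEFs with DOX than in ESCs. These calls number 6 lower, where the background is 13.6%, and 1 higher, where it is 16.7%.

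The Nanog KO fibroblasts with the OSKM virus had Pou5f1 at 11.91 and Klf4 at 10.46, against 12.59 and 8.89 in WT MEFs with DOX. Compared with WT MEFs without DOX, at 8.19, Pou5f1 was higher by 3.71, and by 2.97 with medians aligned, which is 2-fold or more both ways. Klf4 was higher by 1.46 than in WT MEFs without DOX and by 1.56 than in WT MEFs with DOX, but with medians aligned these differences were 0.72 and 0.82, under 2-fold. Myc, at 10.81, was lower than in WT MEFs with DOX, a difference of -1.39 (-2.13 with medians aligned), and differed by -0.17 (-0.92 with medians aligned) from the 10.99 of WT MEFs without DOX. Sox2 read 6.41, Mycn 6.81 and Sox15 6.55, all under the floor. Klf2 read 7.62 and Klf5 8.44.

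Against WT MEFs with DOX, 2 genes (Klf4 and Klf2) were called higher in the Nanog KO cells, where the background is 37.2%, and 1 (Myc) lower, where it is 5.53%. Klf2, under the floor in WT MEFs with DOX, was at least 1.22-fold higher, and with medians aligned it lay under the floor in both. With medians aligned, 0 were higher (13.1%) and 2, Myc and Pou5f1, were lower (13.3%). Against WT MEFs without DOX, 2 (Pou5f1 and Klf4) were called higher, where the background is 35.1%, and 0 lower, where it is 3.72%. With medians aligned 1, Pou5f1, was higher (9.41%) and 1, Klf2, was lower (11%), at -1.53. These cells also differ from the MEFs in origin and in how the factors were delivered, which cannot be told apart from the loss of Nanog.

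The wider families were then counted from lists of their other members. Of 10 other Klf genes above the floor in WT MEFs, 5 were higher with DOX and 0 lower, where the backgrounds are 11.9% and 13.7%. The list median was 0.42 over 12 measured genes, against 0.00 for all genes. Of the 5, Klf8 and Klf12 were above the floor with DOX only. Klf8 read 8.77 with DOX and 5.77 without, at least 2.69-fold higher. Klf12, which like Klf3 and Klf8 can repress through CtBP, read 9.84 with DOX and 7.08 without. Klf10, a gene induced by TGF-beta, read 10.61 with DOX and 8.68 without, and Klf3 read 11.53 and 9.86. The remaining one, Klf16, named here because it completes the count, differed by 1.24. These Klf genes were higher in the library in which Klf2 was lower and Klf4 lay within 2-fold. In the KO-labelled MEFs, 1 of 10 was higher with DOX (Klf6, at 9.87 against 8.70 without) and 0 were lower, where the backgrounds are 6.81% and 2.93%.

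Of the Sox genes outside Sox2 and Sox15, 6 were above the floor in WT MEFs, and 3 of these were lower with DOX and 1 higher, where the backgrounds are 13.7% and 11.9%. Each of the 6 was above the floor on 1 of the 2 arrays only, 2 with DOX and 4 without, so the count of those called says little beyond this. Sox9, a regulator of cartilage and of many progenitors, read 7.29 with DOX and 10.25 without, and Sox4 read 5.81 and 8.60. Sox12 differed by -1.15 and Sox13, the higher one, by 1.49. With the lower side set to the floor, Sox9 was at least 7.50-fold, Sox4 at least 2.40-fold and Sox12 at least 1.09-fold lower with DOX. Sox13 was at least 2.09-fold higher. In the KO-labelled MEFs, Sox9 read 10.36 with DOX, against 8.54 without. The list median in WT MEFs was 0.07 over 16 measured genes. Among other Pou genes only 2 of 7 measured were above the floor in WT MEFs. Pou3f4 read 5.94 with DOX, against 7.72 without, at least 1.30-fold lower. Pou6f1 read 7.69 with DOX, against 6.66 without, at least 1.27-fold higher. Each passed the floor on 1 array only, so these calls, too, say little beyond this, and the backgrounds are again 13.7% lower and 11.9% higher. In ESCs, Pou2f3 read 5.93 in KO and 8.04 in WT, at least 1.63-fold lower, where the background is 3.18%.

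Partners and rivals of Myc for Max were counted in WT MEFs as well. Of 8 genes of the Max network above the floor, 2 were higher with DOX, where the background is 11.9%, and 0 were lower, where it is 13.7%. The other 6 lay within 2-fold, as did most of all genes. Those higher, Mxi1 and Mxd1, encode proteins that pair with Max and repress E-box genes. Mxi1 read 9.88 with DOX and 7.53 without, and Mxd1 read 9.72 and 7.48. Max itself read 10.04 and 9.77. In the KO-labelled DOX library Mxi1 and Mxd1 read 7.83 and 7.58, and 9.65 and 8.32 in the Nanog KO cells. In WT ESCs, Mxd4 was lower than in MEFs without DOX, at 7.48 against 9.48.

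**Figure D3:**
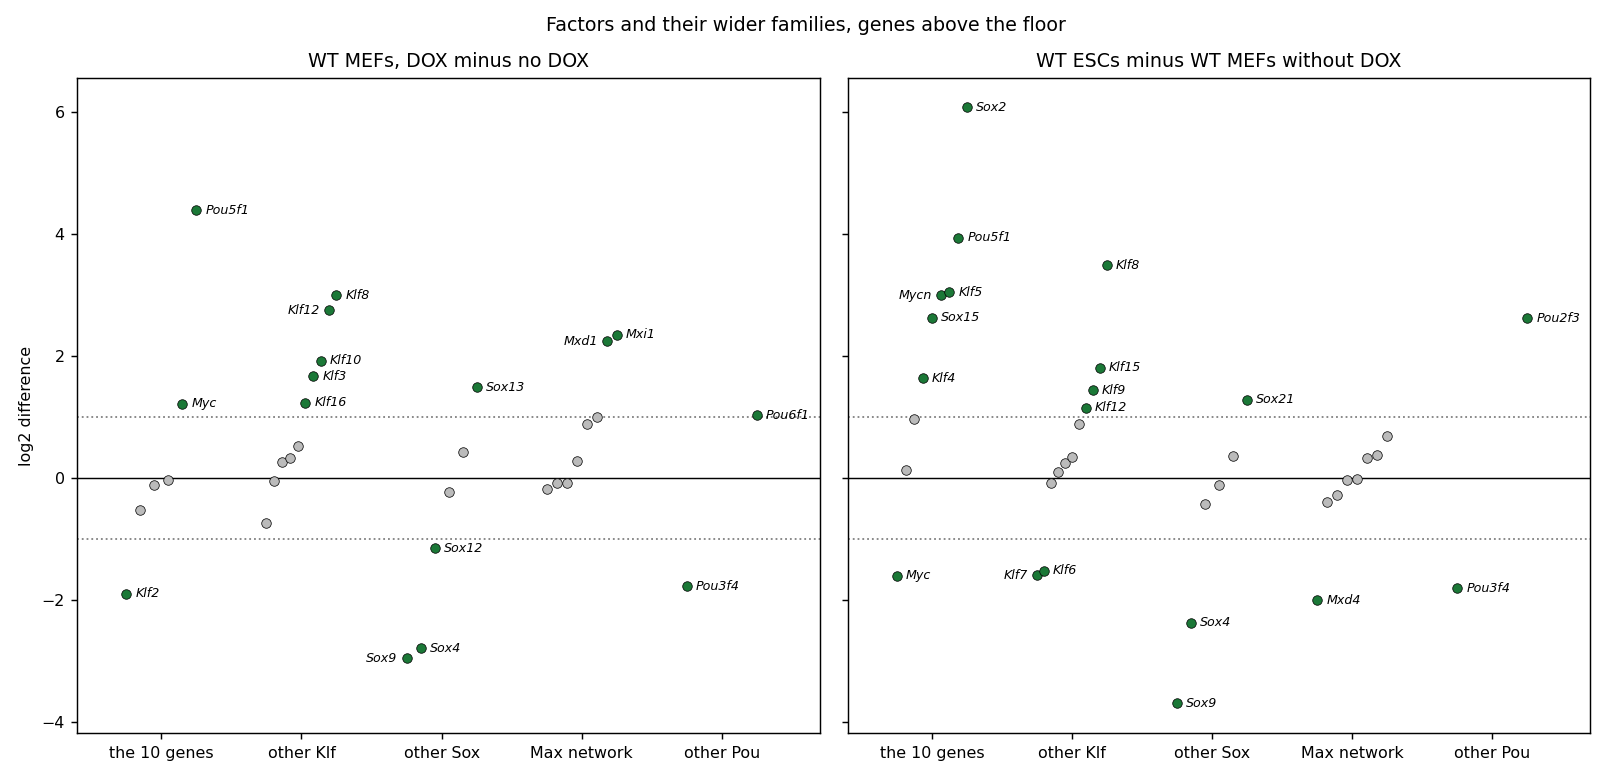
Log2 difference (vertical axis) for the 10 genes and for 4 lists of family members, 1 point for each gene above the floor, in WT MEFs with DOX minus without (left) and in WT ESCs minus WT MEFs without DOX (right); green points are 2-fold or more apart and are named, and dotted lines mark 2-fold. Klf12 and Klf10 stood at 2.75 and 1.93 with DOX, and Sox9 at -2.95.

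Known targets of the factors were counted in the same way. Of 14 measured Oct4-Sox2 targets, 4 were above the floor in WT MEFs. Of these, 3 were higher with DOX, where the background is 11.9%. Fgf4 (at least 3.67-fold higher) and Sall4 (at least 1.21-fold) passed the floor with DOX only, so the count says little about these 2. Of the 2 above the floor on both arrays, 1 (Rif1) was higher. Fgf4, a growth factor gene with a joint Oct4-Sox2 element, read 9.21 with DOX and 6.32 without, Sall4 read 7.62 and 5.72, and Rif1 read 8.99 and 7.82. Nanog stayed under the floor, at 5.48 with DOX and 5.43 without. In the KO-labelled MEFs, Nanog read 5.59 with DOX and 7.82 without, and Fgf4 read 5.90 and 7.55. Both passed the floor in the no-DOX library only, where Nanog was at least 1.39-fold and Fgf4 at least 1.15-fold higher. Jarid2 and Rif1, above the floor in both libraries, differed by -0.12 and 0.11. In WT ESCs 13 of the 14 were above the floor, against 2 in WT MEFs without DOX.

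Of the 11 measured Klf targets, which are largely epithelial genes, 9 were above the floor in WT MEFs with DOX and 1 without. As 8 of them passed the floor in the DOX library only, a count of those called says little beyond this. The median difference over all 11 was 3.32, against 0.00 for all genes above the floor. Dsp, a desmosome gene, read 11.92 with DOX and 5.56 without, and Cdh1, the E-cadherin gene, read 11.74 and 5.79. Klf4 itself was at 8.89 and 9.00 in these libraries. In the KO-labelled MEFs, 0 of the 11 were above the floor with DOX and 5 without, among them Cdh1, at 5.52 with DOX against 9.54 without. This list holds 7 of the 10 epithelial markers, so it is no separate reading from them.

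Of 22 Myc targets, all above the floor on both WT MEF arrays, 1 was 2-fold higher with DOX, where the background is 11.9%, 0 were lower, where it is 13.7%, and 21 lay within 2-fold, with a list median of 0.00. The exception was Tfrc, the transferrin receptor gene, at 9.85 with DOX and 8.40 without. Odc1, the first enzyme of polyamine synthesis, read 10.51 and 9.59, and Cad, a pyrimidine synthesis enzyme, read 8.58 and 9.16. In the KO-labelled MEFs, 2 of 22 were lower with DOX, where the background is 2.93%, and 0 higher, where it is 6.81%. Cdca7 read 8.57 against 10.13 without, and Fbl, a nucleolar methyltransferase gene, read 9.83 against 10.90.

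**Figure D4:**
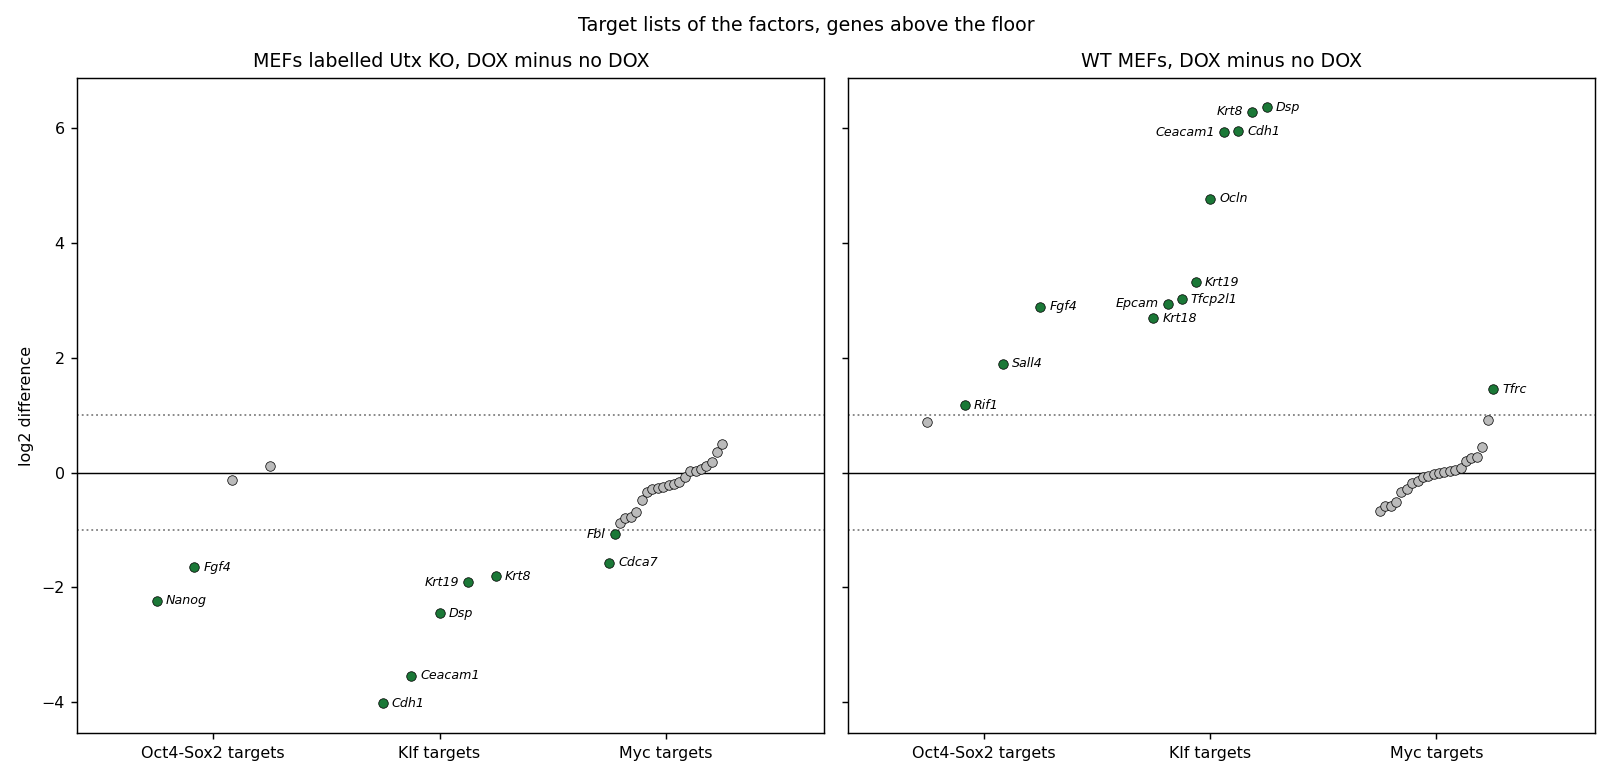
Log2 difference, DOX minus no DOX (vertical axis), for genes above the floor in 3 lists of targets of the factors, in the MEFs labelled Utx KO (left) and in WT MEFs (right); green points are 2-fold or more apart and are named. The 5 Klf targets above the floor in the KO-labelled MEFs passed it without DOX only, and 8 of the 9 in WT MEFs passed it with DOX only, so the log2 differences drawn for these reach under the floor. Of 22 Myc targets, 20 lay within 2-fold in the KO-labelled MEFs and 21 in WT MEFs.

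Genes with the most similar pattern over the 7 arrays were found by Pearson correlation among 3511 genes that ranged over at least 2 on the log2 scale with medians aligned. The 7 points are single arrays, and whether that of the Nanog KO cells was normalized with the others was not given. The contrast between ESCs and fibroblasts sets most of these values. For Pou5f1 the nearest was Chd7, a chromatin remodeller gene, at r = 0.97, followed by Pcolce2 and Mir6516, both at 0.95. For Sox2 they were Lncenc1, Zscan10 and Trap1a, all at 0.997. Sox15 was nearest to Dlgap3, Nodal and Camk2b (0.997, 0.995 and 0.994), and Mycn to Lrrc2, Gpr160 and Prdm14 (all 0.99). Klf5 was nearest to Dmc1, Tipin and Tex9 (0.996, 0.992 and 0.992), Klf2 to B4galt6, Gcnt2 and Vegfc (0.99, 0.98 and 0.98), and Klf4 to Kit, Cyfip2 and Cdca7 (0.97, 0.96 and 0.96). Myc was nearest to Fam20c, Dgat2 and Baz1a (0.99, 0.99 and 0.98).

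Mycl and Pou3f1 ranged over less than 2, and Mycl lay under the floor on all 7 arrays. Their nearest genes were Ms4a10, Lefty2 and Masp2 for Mycl (0.92, 0.90 and 0.90) and Peg10, Nup93 and Notch1 for Pou3f1 (0.96, 0.95 and 0.94). Without the Nanog KO array, the values for Pou3f1 were 0.86, 0.88 and 0.80. Among the 10 genes themselves, Sox2 correlated with Klf5 at 0.98, with Mycn at 0.98 and with Sox15 at 0.96. Pou5f1 correlated with Sox2 at 0.41, with Klf4 at 0.68 and with Myc at 0.00, and Myc correlated with Sox2 at -0.75. Pou5f1 thus had a pattern of its own among the factors, high in ESCs and also in 3 of the 5 fibroblast libraries.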

How the data were processed

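Per the submitters' processing notes, the authors made the deposited log2 values with Affymetrix Expression Console and RMA, which corrects background, normalizes and summarises probes. Versions, the genome build, and whether the Nanog KO array was normalized with the others were not given in the sources used here. In the deposited table there were 21811 rows, 7 arrays and 0 missing values, and arrays have no read depth. Groups came from the sample titles. Rows were named through the platform annotation: 14894 carried a single symbol, 925 carried more than 1 and were set aside, and 5992 are unnamed here. For the 754 genes with several rows the row with the highest mean stood for the gene. Gene IDs of all 10 genes matched RefSeq (GRCm38.p6). Listed genes without a row are not analysed here.

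The 2-array log2 difference was taken per gene, in Python 3.11.15 with numpy 2.4.6 and pandas 2.3.3, and figures were drawn with matplotlib 3.10.9. No test was possible with 1 array per condition. Alternatives were aligned medians, quantile normalization, no floor, a floor at the 60th percentile (8.48), a 1.5-fold threshold and the mean over rows. Genes named from a list were up to 4 with the largest absolute difference above the floor in a comparison, not all of which are printed, and the 3 nearest genes by correlation were named for each of the 10. The 10 genes, lists and rules were chosen with earlier results of these data known.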

Additional observations from a re-analysis of the deposited data

Results flagged for a closer look

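For 3 of the 10 genes (Pou5f1, Myc and Klf2), the DOX difference had opposite signs in the KO-labelled MEFs and in the WT MEFs and was called in at least 1 of them. Klf4, the remaining gene called in either, had the same sign in both. The share of all genes by this same rule was not counted, and the shares that follow use other rules. Opposite signs of any size were seen in 64.9% of all 10039 genes above the floor on any MEF array. Of the 504 genes called in both genotypes, 479 had opposite signs (95%). For Pou5f1 the difference in the KO-labelled MEFs (-6.14) minus that in the WT MEFs (4.40) was -10.54, or -8.31 with values under the floor set to it. For Myc the values were -0.46 and 1.22, a difference of -1.68. For Klf2 they were 0.59 and -1.90, a difference of 2.48, or 1.66 with values under the floor set to it. With 1 array per condition these differences between the genotypes were not tested, and they hold for the DOX labels as given.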

How the results depend on the processing

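Aligned medians and quantile normalization moved the counts of called genes only for the Nanog KO array. Both gave 0 higher and 2 lower against WT MEFs with DOX, in place of 2 and 1, and 1 higher and 1 lower against WT MEFs without DOX, in place of 2 and 0. Without a floor, 4 genes were higher in the Nanog KO cells in each of these comparisons. With the floor at the 60th percentile, 0 genes were lower with DOX in WT MEFs in place of 1 (Klf2), 1 in place of 2 was higher in the KO-labelled than in the WT MEFs with DOX, and 1 was higher in the Nanog KO cells than in WT MEFs with DOX. A 1.5-fold threshold gave 2 higher with DOX in the KO-labelled MEFs in place of 0, 2 higher and 1 lower in the KO-labelled than in the WT MEFs without DOX in place of 1 and 0, 2 higher in KO than in WT ESCs in place of 0, and 2 and 1 lower in the Nanog KO cells than in WT MEFs with and without DOX. The mean over rows moved no count, as each of the 10 genes has 1 row. No called difference of the 10 genes changed sign under any scaling. Correlations without the pair of KO-labelled MEF libraries, or without the Nanog KO array, were added after the data were seen: that of Pcolce2 with Pou5f1 was 0.83 without the KO-labelled pair, and that of Notch1 with Pou3f1 was 0.80 without the Nanog KO array, and 28 of the 30 pairs moved by at most 0.1 both ways. No paired analysis was possible because each condition has 1 array.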

Other observations

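Of 14 genes that have been used with the 4 factors or in place of one, 9 were above the floor in WT ESCs and 4 in WT MEFs without DOX. Of the 11 above it on either array, 8 were higher in ESCs and 2 lower, where the backgrounds are 14.5% and 19.8%, and 7 of the 8 were above the floor in ESCs only. Nanog read 12.28 in ESCs and 5.43 in MEFs, Esrrb, an orphan nuclear receptor gene, read 11.15 and 4.81, and Nr5a2, which can replace Oct4, read 9.83 and 5.16. With DOX in WT MEFs 1 of 5 above the floor was higher, Sall4, and Esrrb and Nr5a2 read 5.29 and 5.13 with DOX. Gata6, an endoderm factor gene, read 8.08 with DOX and 8.99 without, and Glis1 read 7.49 and 8.16.

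Prdm14, a regulator of naive pluripotency and germ cells, read 9.67 in KO and 8.81 in WT ESCs, a difference of 0.86 that lies under 2-fold. Rarg, a retinoic acid receptor gene, read 9.28 and 8.72. In the Nanog KO cells Gata3 read 8.78, against 6.39 in WT MEFs with DOX, a difference of 1.65 with medians aligned.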
